A study of Homo sapiens with 12 samples.

Results

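The replication-dependent histone genes were followed in head and neck squamous cell carcinoma cells treated with interferon alpha (IFNα). They were taken as every gene row with a symbol beginning HIST1H, HIST2H or HIST3H, without pseudogene symbols ending in PS and a number. A mean count of at least 10 over the 12 samples was required. Of 60099 gene rows, 86 matched, 11 of these carried a pseudogene symbol, 8 fell under the count minimum, and 67 members remained. HIST2H2BB lay just inside the minimum with a mean count of 17.8, and HIST3H2BA just outside with 6.92. By the class in the symbol, 5 members are H1, 16 H2A, 20 H2B, 14 H3 and 12 H4. By cluster, 51 belong to HIST1 on chromosome 6, and 14 to HIST2 and 2 to HIST3 on chromosome 1. In the GENCODE 29 annotation 64 members are protein coding, whereas HIST2H2BA and HIST2H2BB are transcribed unprocessed pseudogenes and HIST2H2BC was not found. These 3 rows are kept in the H2B counts and medians below. HIST1H3D is counted as 2 rows, named here with their gene identifiers.

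The established head and neck cancer cell lines Cal27 and HN30 received 0, 20 or 200 ng/ml IFNα for 24 h, and each line and dose was sequenced in 2 replicates. The labels name the samples of one line A to C and those of the other D to F, without saying which line is which, so they are called line set A-C and line set D-F. The untreated samples (A and D) are called control, those at 20 ng/ml (B and E) low dose, and those at 200 ng/ml (C and F) high dose. The 6 groups carry no other treatment or genetic change in the labels. Each line set is a single cultured tumour line, and nothing states that its replicates were separate cultures, so the p-values measure the spread between these samples, which may be technical.

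Replication-dependent histone genes supply the histones that package newly copied DNA, and their mRNAs accumulate while cells are in S phase. H2A, H2B, H3 and H4 form the nucleosome core, and H1 is the linker histone that binds DNA where it enters and leaves the nucleosome. These mRNAs are unusual in having no poly(A) tail. They end after a conserved stem-loop that is bound by the stem-loop binding protein SLBP, which takes part in their processing, export and translation. Libraries made by depleting ribosomal RNA, as here, hold such transcripts, whereas selection on poly(A) would lose most of them.

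The stem-loop is shown because it is the element that defines these mRNAs and was not used in the choice by symbol. It was found as the 16-base word with a 6-base inverted repeat that occurred in the transcripts of the most members, in GENCODE 29 transcripts. That exact word was present in 18 members, and 14 others held a word with 1 to 3 differences. The remaining members had no such word in these transcripts, which says only that the annotated ends do not hold it. The capitals mark the 16-base word in members of different class and cluster, with 5 bases on each side.
HIST3H2A: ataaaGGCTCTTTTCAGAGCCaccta
HIST3H2BB: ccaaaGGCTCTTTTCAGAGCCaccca
HIST2H2AA3: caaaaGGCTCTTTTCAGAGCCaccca
HIST1H2BD: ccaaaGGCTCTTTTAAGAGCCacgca
HIST1H3E: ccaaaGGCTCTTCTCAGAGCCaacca
HIST1H4B: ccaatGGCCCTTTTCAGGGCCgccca
The HIST3 pair and HIST2H2AA3 held the most common word, whereas HIST1H4B, like HIST1H4E, HIST1H4H and HIST1H4J, differed from it at 2 positions. The exact word was also held by members that fell at the high dose, among them HIST1H2AI, HIST1H2AE, HIST2H3A and HIST2H3C. The members shown are therefore not a guide to the direction of change, and a link between the word and direction was not tested.

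RefSeq promoters (GRCh38.p14, from 250 bases before to 50 bases after the start site) were matched for 59 members, which share 58 distinct windows. Motifs were searched as exact letters, apart from the response element, on both strands. The CCAAT box (CCAAT) was present in 50 of the 58 windows, or 86.2%, against 34.6% of all 35116 RefSeq windows of the same length, and in only 2 of 10 H4 windows. The TATA box (TATAAA) was present in 65.5% against 11.5%. The octamer (ATTTGCAT), the sequence read by the OCT1 factor, was found in 13 of 17 H2B and 10 of 15 H2A windows and in no window of the other classes, against 1.77% of all windows. The H1 box (AAACACA) was found in all 5 H1 windows and in 3 others, against 5.64% of all windows. The E2F letters (GGCGCGAA) were found in 11 windows, or 19.0%, against 0.96%. The core of the interferon-stimulated response element was found in 5 windows, or 8.62%, against 3.57% of all, and these belonged to HIST1H2BE, HIST1H2BI, HIST1H2BJ, HIST1H3H and HIST2H3D. None of those 5 genes passed the test at the high dose over both line sets, while HIST1H3H (-0.87) and HIST2H3D (-0.55) fell in line set A-C alone. Divergent neighbours share part of their windows, and a match is only a description of the letters.

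The promoters of a rising and of 2 falling members are shown, with the motif matches in capitals. For HIST3H2A (chr1:228457824-228458123, minus strand) the capitals mark CCAAT on either strand. Its window overlaps that of HIST3H2BB by 271 bases, since the start sites of these divergent genes lie 228 bases apart. For HIST1H1B (chr6:27867539-27867838, minus strand) they mark the H1 box and CCAAT, and for HIST1H4B (chr6:26027234-26027533, minus strand) TATAAA.
HIST3H2A: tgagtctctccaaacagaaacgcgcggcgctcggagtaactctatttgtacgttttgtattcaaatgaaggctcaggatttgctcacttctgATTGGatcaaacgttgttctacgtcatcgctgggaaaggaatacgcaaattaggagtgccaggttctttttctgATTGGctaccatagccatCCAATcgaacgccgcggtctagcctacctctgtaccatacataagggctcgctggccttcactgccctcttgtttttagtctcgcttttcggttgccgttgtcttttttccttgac
HIST1H1B: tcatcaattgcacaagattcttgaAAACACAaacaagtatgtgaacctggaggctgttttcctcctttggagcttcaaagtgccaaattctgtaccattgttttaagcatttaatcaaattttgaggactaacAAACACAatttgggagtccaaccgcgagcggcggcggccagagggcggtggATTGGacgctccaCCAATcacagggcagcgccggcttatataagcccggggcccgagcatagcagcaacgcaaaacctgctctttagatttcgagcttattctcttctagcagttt
HIST1H4B: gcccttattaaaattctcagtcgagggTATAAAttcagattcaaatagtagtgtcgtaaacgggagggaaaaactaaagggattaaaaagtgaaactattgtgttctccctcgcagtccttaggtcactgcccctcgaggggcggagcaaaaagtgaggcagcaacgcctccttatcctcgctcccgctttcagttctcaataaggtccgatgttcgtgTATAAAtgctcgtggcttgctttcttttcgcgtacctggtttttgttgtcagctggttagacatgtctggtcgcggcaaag

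The libraries held 10517448 to 16056734 counts, and every control held more (12670755 or above) than every high dose library (11854183 or below). Levels are given as TMM-scaled CPM (each count as a share of its library) unless stated, which take depth into account. Levels of different genes are compared in TPM, which also divide by transcript length, apart from CPM shares of the classes and clusters. The treatment was seen in 6 of 6 interferon check genes, among them MX1 with a log2 fold change of 4.57 at the high dose. The squamous and epithelial markers KRT5 and EPCAM were present in every sample, at 237 to 1248 and 172 to 271 TPM, whereas the keratin KRT14 was at 0 in 4 samples and reached 49.2 TPM. Of the markers of other cell types CD3E was at 0 in all 12 samples and PTPRC in 10. CD14 was seen at up to 2.29 TPM, the fibroblast collagen COL1A1 at 3.43 to 13.0 TPM, and the endothelial CDH5 reached 21.7 TPM. The line sets differed here. The 3 endothelial markers summed to 15.3 to 21.7 TPM in A-C and 0.100 to 0.733 TPM in D-F. The A-C sum was nearly all CDH5, since VWF reached at most 0.414 TPM and PECAM1 0.576 TPM in any sample. The 9 squamous and epithelial markers summed to 2751 to 3371 TPM in A-C and 1204 to 1509 TPM in D-F.

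The most abundant members by mean TPM over the 12 samples were HIST1H4K (1359 TPM), HIST1H2AM (1222 TPM) and HIST1H4J (1103 TPM). In the other classes HIST1H2BK (988 TPM), HIST1H3C (857 TPM) and HIST1H1B (386 TPM) ranked highest. Summed over all members, H2A made up 31.2% of the mean histone TPM, H2B 27.5%, H4 21.2%, H3 14% and H1 6.15%. HIST1 contributed 83.5%, HIST2 16.1% and HIST3 0.385%. These TPM ranks and shares depend on the annotated transcript lengths. As shares of the summed CPM, H2B (30.3%) stood above H2A (28.9%), and HIST1 held 77.7%, HIST2 21.3% and HIST3 1.02%. The members together took between 0.534% and 0.772% of all counts of a sample.

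Several of these rows cannot be separated well by sequence. Of the 50-base words in the annotated transcripts, a median of 2.20% per member was shared with another member, but 15 members shared more than 50%. In 5 groups (HIST2H2AA3 and HIST2H2AA4, HIST2H3A and HIST2H3C, HIST2H4A and HIST2H4B, HIST1H4J and HIST1H4K, and HIST1H2AD with the HIST1H3D rows) at least 1 member shared 90% or more of its words with another, so their split into rows is uncertain. HIST1H2AI shared 62.3% of its words with HIST1H2AJ, HIST1H2AJ 83.7% with HIST1H2AI, and HIST1H2AM 86.3% with HIST1H3J. For 6 members (HIST1H2BN, HIST1H2BE, HIST1H4I, HIST1H2AC, HIST2H4B and HIST2H2BB) the 2 replicates of some group lay at least 3-fold apart. HIST1H2BN, for example, read 101 and 6.38 CPM in the 2 replicates of A-C low dose and 4.33 and 97.4 CPM in those of D-F high dose. None of these 6 passed the test in any comparison of dose.

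The first question was which histone genes changed with IFNα over both line sets. At the high dose most H1, H3 and H4 genes fell, by up to 2.59-fold, H2A and H2B genes went both ways, and the HIST3 pair rose almost 3-fold (2.94-fold for HIST3H2A). Of the 67 members 32 fell and 6 rose at an adjusted p of at most 0.05, whereas 4.57% of the 19944 genes tested were called lower and 4.98% higher. At least 2-fold changes were fewer, with 8 members lower and 2 higher, against 0.552% and 1.58% of all genes. The median log2 fold change of the members was -0.37, against -0.01 over all genes. Since these are bulk samples, fewer cells in S phase and less histone mRNA per cell cannot be told apart.

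**Figure D1:**
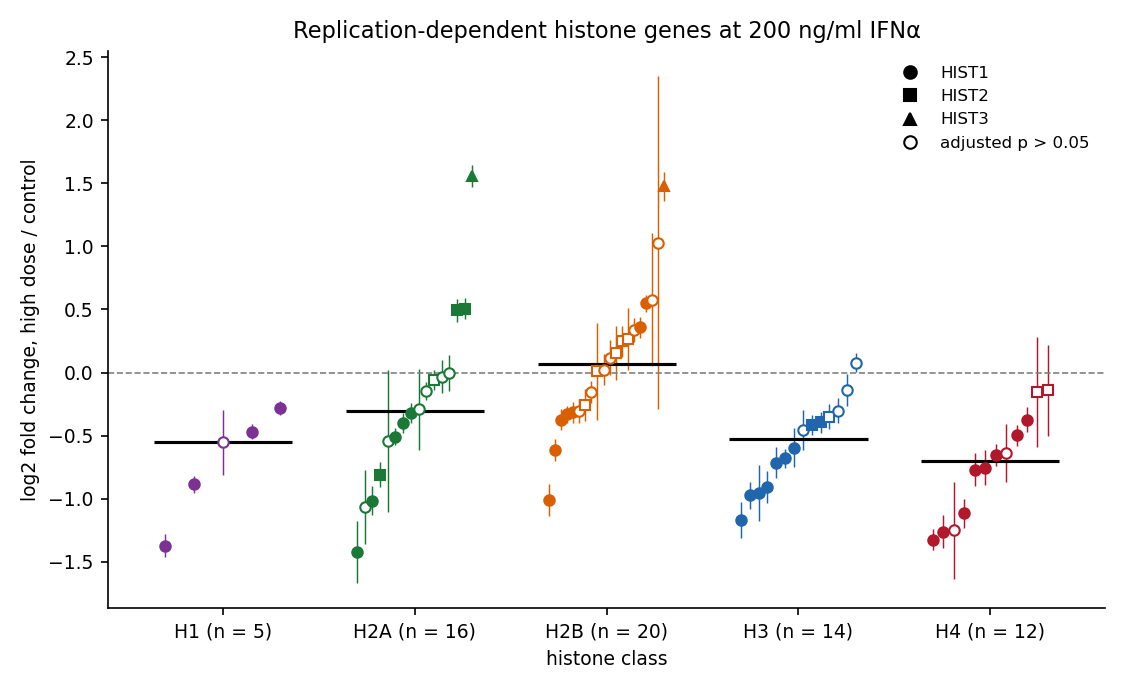
Log2 fold change (high dose over control, mean of both line sets) of each member by histone class, with its standard error as a bar, the cluster as the symbol and the class median as a line; filled symbols passed an adjusted p of 0.05. The H1, H3 and H4 medians lie at -0.55, -0.53 and -0.70, and the triangles of the HIST3 pair stand above all other called members.

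By class, counted by row with near-identical copies kept apart, 4 of 5 H1 genes, 9 of 14 H3 genes and 8 of 12 H4 genes fell and none rose. Among the H2A genes 6 of 16 fell and 3 rose, and among the H2B genes 5 of 20 fell and 3 rose. The class medians of the log2 fold change were -0.55 for H1, -0.31 for H2A, 0.07 for H2B, -0.53 for H3 and -0.70 for H4. Within HIST1 alone the medians were -0.40 for H2A and -0.07 for H2B against -0.68 for H3 and -0.76 for H4. The difference between classes was not tested.

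Summed over the class, H1 was 37.8% lower at the high dose in A-C and 47.1% lower in D-F. H4 was 39.5% and 36.3% lower, and H3 35.7% and 20.2% lower. The H2A sum was 1.0% and 12.2% lower. The H2B sum was 2.1% higher in A-C and 10.5% lower in D-F. The H1 sum was 580 ± 27.5 CPM (SD, n = 2) in A-C control and 361 ± 7.98 CPM at the high dose, and 795 ± 25.3 against 420 ± 4.84 CPM in D-F, so that the groups did not overlap. Leaving out HIST1H1B, its highest member, moved the H1 log2 ratio from -0.80 to -0.57. The H2B ratio was close to 0 (-0.06) and changed sign with the deposited TPM (0.03).

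**Figure D2:**
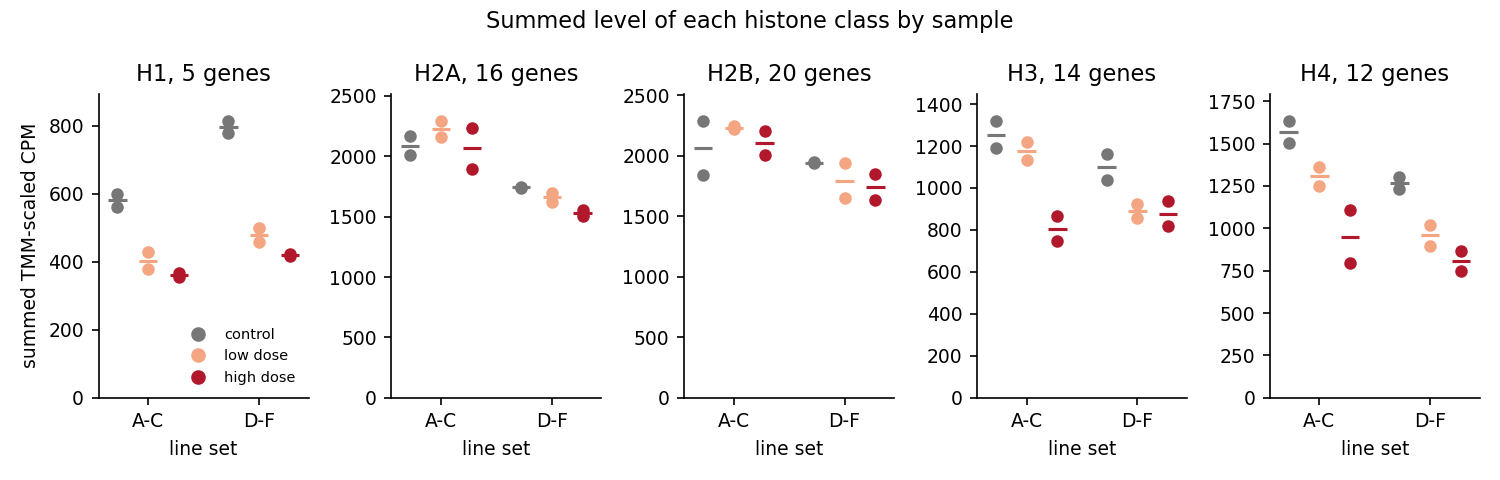
Summed TMM-scaled CPM of each histone class in the 12 samples, as 1 point per sample with the mean of the 2 replicates as a line, by line set and coloured by dose. The H1, H3 and H4 sums of both line sets lie lower at the high dose than in the control, whereas the H2A and H2B sums lie close together or overlap in A-C.

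Of the H1 genes 4 fell at the high dose and 3 at the low dose. HIST1H1B, which encodes the linker histone H1.5, read 164 and 184 CPM in A-C control, 63.0 and 82.2 at the low dose and 63.3 and 70.5 at the high dose. In D-F it read 323 and 338, then 150.1 and 164, then 133 and 124 CPM. All treated samples of a line set lay below its controls, and the log2 fold change at the high dose was -1.37 (SE 0.09, adjusted p = 1.3e-05). HIST1H1C (H1.2) fell from 146 and 158 to 91.9 and 91.7 CPM in A-C and from 175 and 172 to 83.8 and 84.9 CPM in D-F (log2 fold change -0.89, SE 0.07, adjusted p = 3.0e-05). HIST1H1D (H1.3) fell by 0.47 on the log2 scale (SE 0.06) and HIST1H1E (H1.4) by 0.28 (SE 0.06, adjusted p = 0.013). HIST1H1A, at 25.8 TPM the least abundant of the class, had a value of -0.55 (SE 0.26) and did not pass (adjusted p = 0.23).

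All 12 H4 genes, like all 5 H1 genes, had a negative value at the high dose, and 8 of the 12 fell. HIST1H4B read 49.3 and 56.8 CPM in A-C control against 18.8 and 17.3 at the high dose, and 42.3 and 44.5 against 20.5 and 20.1 in D-F. Its groups did not overlap, and its log2 fold change of -1.33 had an SE of 0.08 (adjusted p = 9.5e-06). HIST1H4D fell by 1.26 and HIST1H4C by 1.11 on the log2 scale. The near-identical and most abundant pair HIST1H4J and HIST1H4K had values of -0.75 and -0.77, and their summed counts gave -0.76 (SE 0.14, adjusted p = 0.0076). That sum was 660.0 and 725 CPM in A-C control and 459.5 and 282 CPM at the high dose, with a wide gap between the high dose replicates, and 514 and 556 against 362 and 333 CPM in D-F. HIST2H4A and HIST2H4B did not pass, and their summed counts gave -0.18 (SE 0.24).

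Among the H3 genes HIST1H3E had the largest change, from 12.6 and 12.2 to 5.68 and 4.91 CPM in A-C and from 10.6 and 10.9 to 5.58 and 4.36 CPM in D-F (log2 fold change -1.17, SE 0.14). HIST1H3B fell by 0.97 (SE 0.10), HIST1H3I by 0.91 and HIST1H3G by 0.68. The HIST1H3D rows fell by 0.71 and 0.95, and their counts summed with those of HIST1H2AD gave -0.65 (SE 0.11, adjusted p = 0.0060). HIST1H3C, the most abundant H3 gene, did not pass, with a log2 fold change of 0.08 (SE 0.08). It read 194 and 225 CPM in A-C control and 243 and 231 at the high dose, and 185 and 205 against 188 and 195 CPM in D-F, so that the high dose samples were slightly above the controls in A-C and within their range in D-F. In HIST2, HIST2H3A and HIST2H3C had values of -0.41 and -0.40 and passed, and HIST2H3D had -0.35 (adjusted p = 0.060).

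H2A and H2B genes went in both directions. HIST1H2AI fell most, by 1.42 (SE 0.24), from 37.9 and 65.6 to 18.4 and 10.1 CPM in A-C and from 40.8 and 62.2 to 23.4 and 28.6 CPM in D-F, although much of its sequence is shared with HIST1H2AJ (-0.32, SE 0.08). HIST1H2AH fell by 1.02 and HIST2H2AB by 0.81, while HIST1H2AM, the most abundant H2A gene, was not called (-0.15, SE 0.07). HIST1H2BD fell by 1.01 (SE 0.13), from 75.2 and 95.8 to 48.6 and 34.9 CPM in A-C and from 94.4 and 100.2 to 44.9 and 53.3 CPM in D-F. HIST1H2BO rose by 0.36 (SE 0.08) and HIST1H2BM by 0.55 (SE 0.07). HIST1H2BK, the most abundant H2B gene, had -0.32 (SE 0.08) and passed (adjusted p = 0.041), and HIST1H2BI had -0.16 and did not.

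The HIST3 pair rose most. HIST3H2A (GRCh38, chr1:228456979-228457873, minus strand) read 15.2 and 15.2 CPM in A-C control, 34.6 and 34.8 at the low dose and 36.2 and 32.3 at the high dose. In D-F it read 9.21 and 8.35, then 29.1 and 34.0, then 33.4 and 34.1 CPM. Every treated sample lay above every control, and the log2 fold change was 1.56 (SE 0.09, adjusted p = 4.1e-06) at the high dose and 1.52 (SE 0.09) at the low dose. Its divergent neighbour HIST3H2BB (chr1:228458107-228460470, plus strand) read 16.8 and 23.9 CPM in A-C control against 46.7 and 39.7 at the high dose, and 17.2 and 16.6 against 60.1 and 63.1 CPM in D-F. Its log2 fold change was 1.48 (SE 0.12, adjusted p = 4.9e-05), again with no overlap. HIST3H2A shared no 50-base word with another member and HIST3H2BB 1.21% of its words. Both were scarce, at 49.3 and 29.1 TPM on average.

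Among HIST2 genes the near-identical HIST2H2AA3 and HIST2H2AA4 rose. Their summed counts were 469.7 and 536 CPM in A-C control, 743 and 680.4 at the low dose and 834 and 634 at the high dose. In D-F they were 368 and 376, then 500.4 and 540.2, then 506 and 514 CPM. Within each line set every treated sample lay above the controls, and the summed pair rose by 0.50 on the log2 scale (SE 0.09, adjusted p = 0.0065). HIST2H2AC had -0.06, HIST2H2BE 0.25, HIST2H2BF -0.26 and the scarce rows HIST2H2BA, HIST2H2BB and HIST2H2BC 0.27, 0.01 and 0.16, none of which passed. In all, 3 HIST2 members fell and 2 rose, and in HIST1 29 of 51 fell and 2 rose.

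**Figure D3:**
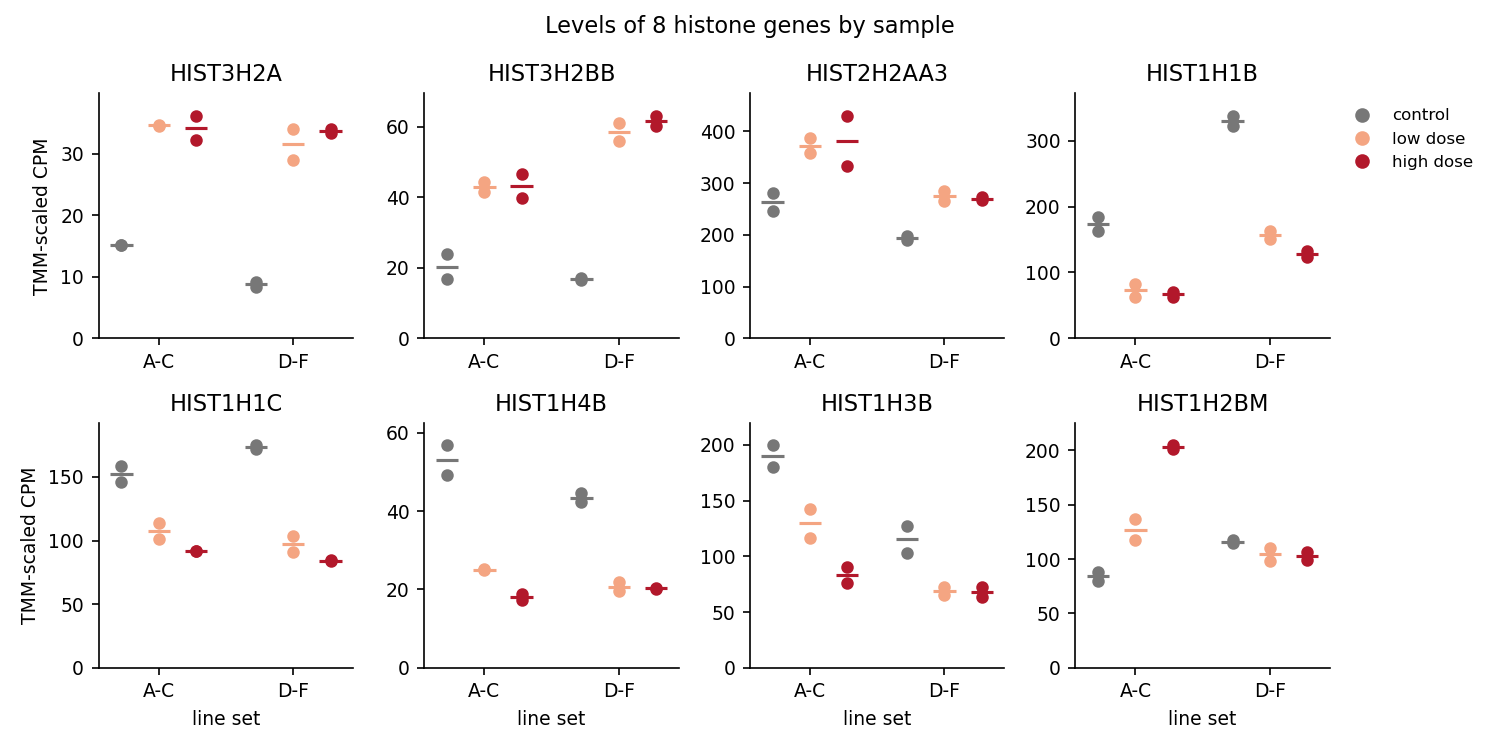
TMM-scaled CPM of 8 members in each of the 12 samples, with the mean of the 2 replicates as a line, by line set and coloured by dose. The HIST3 pair and HIST2H2AA3 lie higher, and HIST1H1B, HIST1H1C, HIST1H4B and HIST1H3B lower, in treated samples of both line sets, whereas HIST1H2BM is higher only in treated samples of A-C.

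The HIST1 members on chromosome 6 were divided into 2 stretches at the widest gap between neighbouring members (848 kb from the start of HIST1H4H to that of HIST1H2BJ). The first stretch (chr6:26017085-26285638) holds 30 members, of which 19 fell and none rose, with a median log2 fold change of -0.57. The second (chr6:27125897-27893843) holds 21, of which 10 fell and 2 rose, with a median of -0.32. It is not contiguous, since no member starts between HIST1H2AH (27147129) and HIST1H2BL (27807444).

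**Figure D4:**
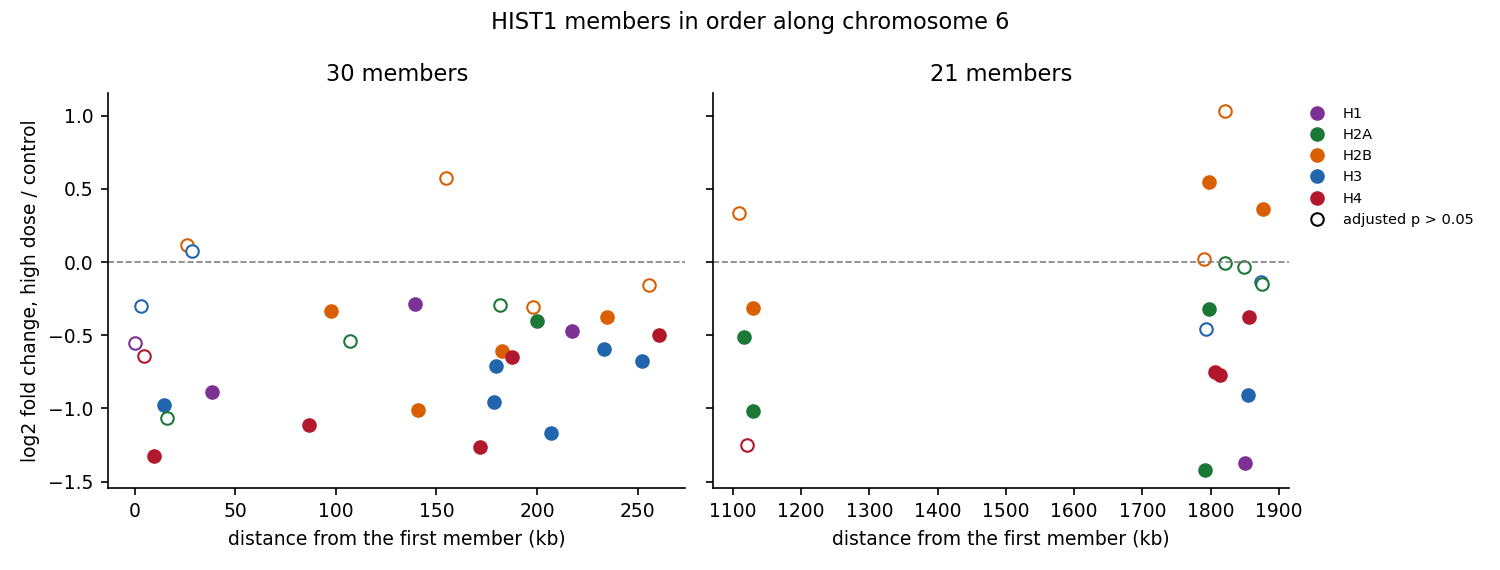
Log2 fold change (high dose over control) of the HIST1 members against the distance in kb of their start from that of the first member, coloured by class, in the 2 stretches; filled symbols passed an adjusted p of 0.05. Falling members are spread over both stretches, and both called rises are H2B genes of the second.

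At the low dose the same direction was seen with fewer calls. Of the members 16 fell and 5 rose, against 1.6% and 2.33% of all genes, with a median log2 fold change of -0.20. All 21 were also called in that direction at the high dose, but both doses were compared with the same controls. The share of all genes called at both doses is not given here. HIST1H1B and HIST1H3E fell by 1.17 each and HIST1H4B by 1.08, beside 1.37, 1.17 and 1.33 at the high dose. By class 3 of 5 H1, 5 of 12 H4, 4 of 14 H3, 2 of 16 H2A and 2 of 20 H2B genes fell, with 3 H2A and 2 H2B genes higher. Between the doses themselves no member was called (edgeR), against 0.0903% of all genes higher and 0.0451% lower at the high dose. At an unadjusted p of at most 0.05 (edgeR) there were 26 members, of which 25 were lower at the high dose, and DESeq2 called 5. The shares of all genes at these settings are not given here, so the counts are not read as a dose effect.

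Each line set was then compared with its own controls. In A-C 28 members fell and 5 rose at the high dose, against 3.6% and 3.58% of all genes, and in D-F 20 fell and 4 rose, against 2.39% and 3.44%. Of these, 14 fell in both line sets: HIST1H1B, HIST1H1C, HIST1H1D, HIST1H2AG, HIST1H2AH, HIST1H2BD, HIST1H2BF, HIST1H3B, HIST1H3E, HIST1H3G, HIST1H3I, HIST1H4B, HIST1H4C and HIST1H4D. They make up 14 of the 28 calls in A-C and 14 of the 20 in D-F. The shares of all genes called, or negative, in both line sets are not given here, so this agreement has no background. HIST2H2AA3, HIST3H2A and HIST3H2BB rose in both. HIST2H2AA4, the near-identical copy of HIST2H2AA3, read 177 and 179 CPM in D-F control and 239 and 241 at the high dose. Its row did not pass there, and the split between these 2 rows is uncertain. The values were negative in both line sets for 43 members, positive in both for 7 and of opposite sign for 17, and their correlation across the 67 members, which share sequence and libraries, was r = 0.50 (Spearman's rho = 0.54). HIST1H2AB was not called over both line sets (-1.07, adjusted p = 0.051). In A-C it fell by 1.90, from 39.6 and 54.7 CPM to 18.7 and 6.34 CPM in high dose replicates 1 and 2, which lay 2.96-fold apart. H3 had a median of -0.84 in A-C and -0.17 in D-F, and H4 -0.71 and -0.62. The A-C count of 33 was 7 with only the compared groups in the fit, 14 without A-C control replicate 2 and 15 without A-C high dose replicate 2, in which the sum of 13 other short or unpolyadenylated RNAs was also low (21678 CPM against 24521 to 34616 in the other 11). The D-F count of 24 was 12 and 7 without control replicates 1 and 2, and 9 and 11 without high dose replicates 1 and 2.

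**Figure D5:**
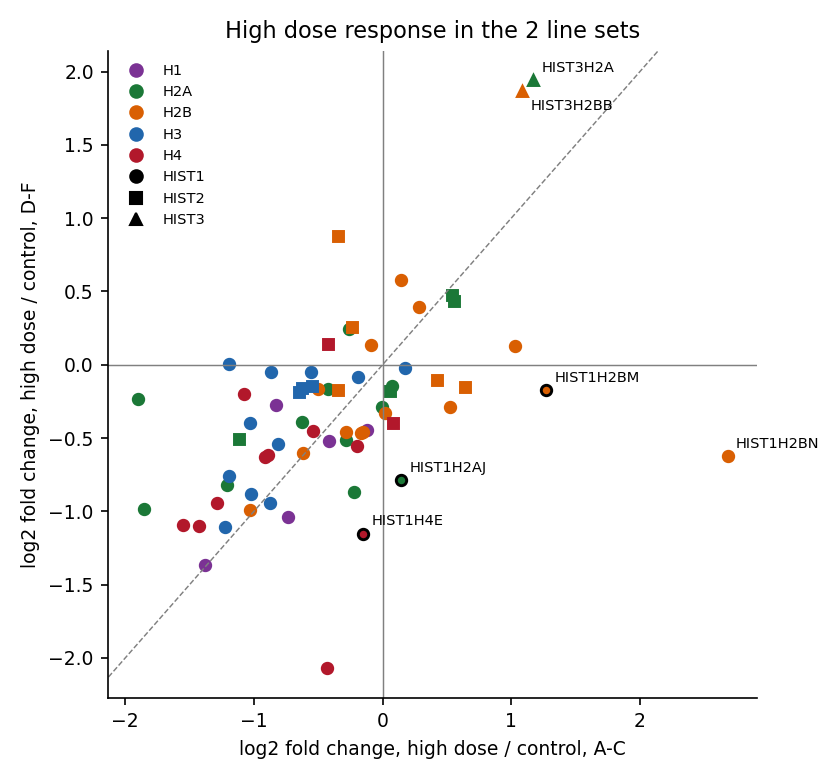
Log2 fold change at the high dose in D-F against that in A-C for the 67 members, coloured by class, with the cluster as the symbol and a dashed line of equality; a black rim marks the 3 members whose response differed between the line sets at an adjusted p of 0.05. HIST1H2BM, HIST1H2AJ and HIST1H4E lie below the line, and HIST1H2BN lies far from it with replicates that disagree.

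The response at the high dose differed between the line sets for 3 members, each with a lower value in D-F, against 0.807% of all genes lower and 1.07% higher in D-F. HIST1H2BM rose in A-C, from 79.9 and 88.6 to 205 and 201 CPM (log2 fold change 1.27, SE 0.10), while in D-F it read 117 and 115 in the control and 106 and 99.6 at the high dose (-0.17, SE 0.10), a difference of -1.44 (SE 0.14, adjusted p = 0.0027). HIST1H4E fell in D-F, from 174 and 186 to 80.0 and 82.2 CPM (-1.15, SE 0.13), and in A-C it read 174 and 207 against 192 and 151 CPM (-0.15, SE 0.12), a difference of -1.0 (adjusted p = 0.027). HIST1H2AJ fell in D-F, from 189 and 169 to 107 and 100.3 CPM (-0.79, SE 0.11), and in A-C it read 181 and 185 against 189 and 216 CPM (0.14, SE 0.11), a difference of -0.93 (adjusted p = 0.026). The HIST3 pair had larger values in D-F (1.94 and 1.87) than in A-C (1.17 and 1.08), but the differences did not pass (adjusted p = 0.063 for HIST3H2A and 0.12 for HIST3H2BB). The count of 3 was 5 without A-C high dose replicate 1, and 1 without D-F control replicate 1, without D-F high dose replicate 1 and without D-F high dose replicate 2.

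At the low dose 4 members fell and 3 rose in A-C, against 0.196% and 0.913% of all genes, and 13 fell and 3 rose in D-F, against 1.22% and 2.15%. HIST1H1B, HIST1H1C, HIST1H3E and HIST1H4B fell in both, and the HIST3 pair rose in both, again without the share of all genes called in both. No member differed between the line sets (edgeR), against 0.236% of all genes higher and 0.135% lower in D-F. At an unadjusted p of at most 0.05 (edgeR) there were 10 members, and DESeq2 called 1, without the shares of all genes at these settings. The A-C count of 7 was 3 and 4 without low dose replicates 1 and 2. The D-F count of 16 was 9 and 6 without control replicates 1 and 2, and 6 and 8 without low dose replicates 1 and 2.

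The untreated line sets were also compared with each other. Of the members 17 were lower and 5 higher in D-F than in A-C, against 22.4% and 24.1% of all genes, so that 22 of 67 were called. HIST1H4I was nearly absent from D-F control, at 0.994 and 0.453 CPM (15 and 7 counts), against 41.3 and 47.1 CPM in A-C control. It had reached the count minimum through A-C, so no test of this difference is given, although it is 1 of the 17. HIST1H1A was 9.49-fold lower in D-F, at 2.92 and 2.46 against 22.4 and 28.7 CPM, HIST1H3A was lower by 1.34 and HIST1H4A by 1.12 on the log2 scale. HIST1H2BC was lower by 0.88. Higher in D-F were the pseudogene row HIST2H2BA (1.17), HIST1H1B (0.93), HIST1H4L (0.71), HIST1H2BM (0.46) and HIST1H1D (0.44). HIST2H2BA shared 63.5% of its 50-base words with other members. The count was 14 without A-C control replicate 2 and 14 without D-F control replicate 1.

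A list of histone genes outside the members, named replication-independent, was read beside them. Whether each listed gene, H2AFX among them, is expressed outside S phase was not checked. H1F0, the replication-independent linker histone H1.0, rose at the high dose from 59.6 and 67.3 to 262 and 269 CPM in A-C and from 482 and 402 to 1294 and 1219 CPM in D-F, with no overlap within a line set (log2 fold change 1.79, SE 0.08, adjusted p = 3.9e-07). Its direction was opposite to that of the 4 called H1 members. Of 12 listed genes tested, H1F0 alone rose and H2AFV (-0.57), CENPA (-0.49) and H2AFX (-0.38) fell, against 4.98% and 4.57% of all genes. H2AFZ (-0.31), H3F3A (-0.05) and H3F3B (0.17) did not pass.

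Of 33 genes of histone mRNA transcription and processing tested, CCNE2 (0.57), CASP8AP2 (0.36) and CSTF3 (0.30) rose at the high dose and none fell. The shares over all genes were 4.98% higher and 4.57% lower, and the list median was 0.02. SLBP had a log2 fold change of 0.00 (SE 0.27) and NPAT, the cyclin E-CDK2 substrate that activates histone genes, 0.02 (SE 0.11), while CCNE1 (0.28) and E2F1 (-0.05) did not pass. Of 21 histone chaperones HIRA (0.50) and UBN1 (0.47) rose and SSRP1 (-0.36) fell, against the same shares of all genes. The list median was 0.06.

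Cell cycle genes were read because histone mRNA levels follow S phase. Of 50 S phase and replication genes 11 rose and 3 fell, against 4.98% and 4.57% of all genes, with a median of 0.06. CCNE2 (0.57), EXO1 (0.55) and ORC6 (0.53) rose most and GINS4 (-1.32), TYMS (-0.25) and MCM6 (-0.24) fell, while PCNA (0.14) and MCM2 (-0.06) did not pass. Within A-C none of the list rose and 1 fell (median -0.04), against 3.58% and 3.6% of all genes. Within D-F 11 rose and none fell (median 0.25), against 3.44% and 2.39%. The test of the difference called 2 genes, both higher in D-F, against 1.07% of all genes higher. The summed level of the list was 5539 and 5597 CPM in A-C control against 5162 and 5314 at the high dose, and 4246 and 4637 against 5044 and 5223 CPM in D-F, so that it was lower in A-C and higher in D-F. Of 25 G2/M genes none rose and 9 fell, against 4.98% and 4.57% of all genes, with a median of -0.12. The falls were led by AURKA (-0.60), CDC25C (-0.58) and CCNB2 (-0.45), and MKI67 (-0.47) did not pass (edgeR adjusted p = 0.14). Within A-C 3 of the G2/M genes rose and 3 fell (median 0.01), against 3.58% and 3.6% of all genes. Within D-F none rose and 9 fell (median -0.31), against 3.44% and 2.39%. The test of the difference called 5 genes lower in D-F, against 0.807% of all genes. Of 9 cell cycle inhibitors tested RBL1 (0.30) rose and CDKN2B (-0.76) fell, against 4.98% and 4.57% of all genes. None of 13 other short or unpolyadenylated RNAs was called at the high dose in either direction, with a median of -0.09 (edgeR). Their summed level was 31119 and 34616 CPM in A-C control against 29975 and 21678 at the high dose, and 28018 and 31534 against 24521 and 28052 CPM in D-F, lower on average in both line sets and overlapping in D-F. The part of the cell cycle, and of the level of these other RNAs, in the histone changes was not tested.

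Some histone genes also have longer or spliced transcripts, whose tails can be polyadenylated. Of 62 members with at least 100 counts on average, 23 were counted with an annotated transcript of at least 1000 bases or 2 exons. Of these, 7 also had a shorter one. HIST1H3D-ENSG00000282988 was left out of the 23 although it has an annotated transcript of 1637 bases, so 23 is a lower limit. In 4 of the 7 the share of counts given to the long form differed by over 20 percentage points between replicates of a group, as in HIST1H2BC, where the long form took 98.8% and 3.92% in the 2 replicates of A-C low dose. Among these 4, for HIST1H2BD the share was 27.7 and 19.7% in A-C control and 39.4 and 36.7% at the high dose, and 58.5 and 47.4% against 57.1 and 45.5% in D-F. In the other 3 the long form was rare in every sample, at 0.717 to 4.99% in HIST1H2BJ, 0.248 to 0.546% in HIST1H3J and 0.557 to 1.94% in HIST1H4H. For HIST1H2BJ it was 1.31 and 2.56% in A-C control and 4.41 and 4.99% at the high dose, and 1.89 and 3.98% against 1.01 and 0.717% in D-F.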

How the data were processed

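RNA from 12 samples was sequenced after ribosomal RNA depletion in strand-specific libraries. Per the submitters' processing notes the tools were Trimmomatic 0.36, HISAT2 2.1.0 and StringTie 1.3.3b with GRCh38.p10, and the annotation release is not given in the sources used here. The authors deposited estimated counts, TPM and FPKM per gene and per transcript. The deposited counts were rounded and tested with edgeR 4.0.16 (quasi-likelihood, TMM, R 4.3.3) in 1 fit of the 6 groups, over 19944 genes passing filterByExpr, with Benjamini-Hochberg adjustment and a threshold of 0.05. Doses were averaged over the line sets with equal weight. The deposited TPM served for levels between genes and the deposited FPKM were not used. The method was tested on simulated data. DESeq2 1.42.0 was an alternative.

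The members and gene lists were chosen with earlier results of these data known. The named members are up to 5 called in each direction per comparison, the 3 most abundant of each class, all of H1, HIST2 and HIST3, and up to 3 called genes per list and direction, with a few fixed genes such as SLBP. HIST1H2AD, HIST1H3C, HIST1H2BN and other members outside that rule were named after their values were seen. Members were matched by position to GENCODE 29, and promoters come from RefSeq. The replicates differed beyond counting noise, and a count of 3 equals 0.187 to 0.285 CPM, which covers counting error only.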

Additional observations from a re-analysis of the deposited data

Results flagged for a closer look

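The response to the high dose differed between the line sets for 3 members by edgeR's test of the difference itself. The log2 fold change in D-F minus that in A-C was -1.44 for HIST1H2BM, -1.0 for HIST1H4E and -0.93 for HIST1H2AJ. Most of the HIST1H2AJ sequence is shared with HIST1H2AI. Groups of 2 samples are too small for a test of single outlying samples.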

How the results depend on the processing

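The count of called members changed by no more than 1.5 times in any of the 10 comparisons with DESeq2's scaling method in edgeR, and likewise without the filter on low counts. DESeq2 itself called 5 members between the doses and 16 at the low dose in A-C. For the difference between line sets it called 8 and 1 at the high and low dose. The shares of all genes called in the alternatives of this section are not given. With only the groups compared in the fit, 7 members were called at the high dose and 3 at the low dose in A-C, and 10 at the low dose in D-F. With a fold of at least 2 and an unadjusted p of at most 0.05 in place of the adjusted p, 12 and 6 members were called at the high and low dose, 18 and 9 at the high dose in A-C and D-F, 7 at the low dose in D-F, 5 between untreated line sets, and 5 (3 higher, 2 lower) and 1 for the difference between line sets at the high and low dose.

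Replicate numbers did not pair the samples (correlations of deviations -0.0507 to 0.0585 over 13033 genes). A replicate block left 38 calls at the high dose and 20 at the low dose, 3 at the low dose in A-C, and 1 for the difference at the high dose.

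Leaving out 1 library at a time gave 28 to 36 calls at the high dose and 14 to 24 at the low dose, 14 to 31 and 7 to 27 at the high dose in A-C and D-F, 3 to 8 and 6 to 19 at the low dose, 0 to 4 between doses, 14 to 27 between untreated line sets, and 1 to 5 and 0 to 1 for the differences at the high and low dose. The lone sample of a group was then assumed to vary like the others. The H2B class ratio ranged from -0.139 to 0.018 (the highest without A-C control replicate 2), and was 0.0257 with the deposited TPM. Without the highest member the H1 and H3 ratios were -0.57 and -0.64, and the H3 ratio was -0.48 with it. The causes were not tested.

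In alternatives chosen after seeing the data, 34 of 61 were called at the high dose and 20 at the low dose with near-identical copies summed, and 38 without the 6 members of unstable replicates. None of the 38 members called at the high dose over both line sets changed direction in the alternatives run for them. Of these, HIST1H4L, HIST1H2BK, HIST1H3F, HIST1H2AJ, HIST1H2BH and HIST1H2BO most often lost the call.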
